A study of Mus musculus with 16 samples.

Results

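The 37 genes encoded on the mitochondrial sequence were taken as all genes of the deposited table whose chromosome is that sequence, 37 of 41079 in all. They are 13 messenger RNAs, 2 ribosomal RNAs and 22 transfer RNAs, and each class is described apart. The livers came from 16 mice, 4 in each of 4 groups, aged 20 to 22 months and on a C57BL/6J background. All mice carried floxed alleles of Gcgr, the glucagon receptor gene. LKO mice also carried Cre recombinase driven by the albumin promoter, which is active in hepatocytes. Which other cells of the liver keep the receptor gene was not measured. CRE- mice carried the floxed alleles without Cre and served as controls of the same sex. The question of each comparison is which mitochondrial transcripts differ between LKO and CRE- livers, in males and in females, and whether the difference depends on sex.

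Mitochondria keep a small circular genome of their own. It encodes core subunits of the respiratory chain and the RNAs of the ribosome that translates them, while all other subunits are encoded in the nucleus and imported. Both strands are transcribed as long precursors that are processed into single RNAs, mostly at the transfer RNAs that lie between the other genes, and most of the messenger RNAs then receive a short poly-A tail. The liver draws on this system for fatty acid oxidation, gluconeogenesis and ureagenesis, which glucagon acts on through its receptor.

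Depth ran from 33268424 to 56488920 counted reads in a library. Reads on the 13 mRNAs made up 2.702% to 5.75% of them, reads on the 2 rRNAs 0.0735% to 0.605%, and the 22 tRNAs together had 108 to 453 reads. The libraries were made by poly-A selection, so all counts are those of molecules that this selection retained. This bears on the rRNAs, on the tRNAs and on any mRNA without a tail. Values of single genes are given below as CPM, the reads of a gene scaled to the size of its library after TMM normalization, the trimmed mean of M values that sets the scale of a library against the others. Fold changes are log2 values of LKO over CRE- with their SE, from edgeR's quasi-likelihood test fitted on all 16 libraries and 16742 genes, and each adjusted p is a Benjamini-Hochberg value over all genes tested, with a threshold of 0.05. A gene is called where it passes that threshold. Each value of a group stands for 4 mice, and mice are given in the order of their numbers.

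The scaling of the libraries bears on the size of fold changes and, near 0, on their direction. The TMM factors were 0.807 to 0.953 in female CRE- and 1.01 to 1.13 in female LKO libraries, which do not overlap, and 0.903 to 1.13 and 1.003 to 1.17 in male CRE- and male LKO libraries. Their mean log2 difference, LKO minus CRE-, was 0.27 in females and 0.069 in males. With libraries scaled to their size alone, without TMM, an alternative chosen after seeing the data, the median log2 fold change over all genes tested was 0.30 in females and 0.059 in males, against 0.035 and -0.0078 with TMM, and that of the sex difference was 0.24, against 0.035. Directions of mitochondrial genes and of list medians that differ with this scaling are given beside the results. Single nuclear genes are mostly given with TMM alone.

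A pair of libraries stood apart from the rest of their groups. The 75 nuclear genes of the respiratory chain took 0.660% of the reads of male CRE- mouse 3 and 0.603% of those of female LKO mouse 1, against 1.06% to 1.44% in the other 14 libraries. Their mean Pearson correlation of log2 CPM across genes with the other libraries was 0.923 and 0.905, and 0.924 for female LKO mouse 4, against 0.940 to 0.954 in the other 13. Both mice also had the highest mitochondrial rRNA and ND6 levels of their groups. Directions of mitochondrial genes and calls of named genes that rest on them are given with and without both.

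Gcgr itself was at 162, 208, 201 and 180.0 CPM in the 4 female CRE- mice and at 48.8, 132, 119 and 93.6 CPM in the 4 female LKO mice. All 4 LKO values lay below the controls, with a log2 fold change of -0.93 (SE 0.25, edgeR adjusted p = 0.0443). That call is not stable: in 13 of the 16 fits that left out 1 mouse, all but those without male CRE- mouse 2, male CRE- mouse 3 or female LKO mouse 2, the adjusted p by edgeR was above 0.05, with log2 fold changes over the 16 fits of -1.11 to -0.69 and an adjusted p by edgeR or DESeq2 of 0.00807 to 0.136 over all alternatives. Scaled to library size alone it was -0.67 (edgeR adjusted p = 0.0852), and without both libraries that stood apart -0.69 (edgeR adjusted p = 0.0370). In males Gcgr was at 190.4, 193, 127 and 189.6 CPM in CRE- mice and at 117, 136, 129.9 and 160.3 CPM in LKO mice. These groups overlapped through the CRE- mouse at 127 CPM, and the log2 fold change was -0.37 (SE 0.24, edgeR adjusted p = 0.671), -0.50 (edgeR adjusted p = 0.235) without both of those libraries. The difference between the sexes was -0.57 (SE 0.35, edgeR adjusted p = 0.412), female minus male. The count covers the whole gene and not the deleted exons alone. In whole liver RNA, fewer cells of a type and less RNA per cell cannot be told apart.

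The 13 mRNAs were counted to very different extents, and the rules of counting bear on this. A stretch of chromosome 1 in the GRCm39 genome, chr1:24650616-24655269 on the minus strand, is a copy of bases 6390 to 11042 of the mitochondrial sequence with an identity of 99.9%. A read that matches both places was left out of the counts, as was a read that touched more than 1 gene of its strand. For single reads of 150 bases, every placement on COX2, ATP8 and ATP6 has an exact copy in the nuclear genome, and so do 91.5% of those on COX3, 77.4% on ND4L, 57.4% on ND4, 44.3% on ND3 and 29.8% on COX1. With both rules applied, COX2, ATP8, ATP6, COX3 and ND4L keep 0 countable placements and ND3 keeps 3. The libraries were sequenced as pairs, and these placements do not take in the mate of a read. These 6 mRNAs held 0.179% to 0.624% of the mitochondrial mRNA reads of a library, and their counts are uncertain: they come from the minority of reads that the rules let through. The table gives no way to tell a read of the nuclear copy from one of mitochondria. No placement on ND1, ND2, ND5, ND6, CYTB or either rRNA has an exact nuclear copy. Less exact copies cover all or part of ND2, ND5, ND6 and CYTB. They lie on chromosome 2 (bases 4441 to 7699, identity 97.4%), chromosome 4 (bases 12488 to 15359, 93.0%) and chromosome 5 (bases 4937 to 6440, 77.7%).

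The 3 differences that separate the copy on chromosome 1 from the mitochondrial sequence are printed to show how little there is to tell such reads apart. Positions are counted from base 1 of the mitochondrial sequence, the mitochondrial base is given first, both sequences are in the direction of the mitochondrial plus strand, and capitals mark the base that differs. The substitution A6393T lies in COX1, 3 bases after the start of the copied part, and T9461C lies in ND3. The third difference is an insertion of 1 base in the copy, within the transfer RNA gene TrnR. The nuclear stretches run from chr1:24655226-24655269, chr1:24652158-24652238 and chr1:24651790-24651870, all on the minus strand.
Mitochondrial bases 6390 to 6433: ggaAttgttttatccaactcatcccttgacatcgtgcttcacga
Copy on chromosome 1: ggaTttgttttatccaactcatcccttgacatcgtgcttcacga
Mitochondrial bases 9421 to 9501: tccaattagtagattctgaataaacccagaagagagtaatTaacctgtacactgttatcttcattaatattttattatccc
Copy on chromosome 1: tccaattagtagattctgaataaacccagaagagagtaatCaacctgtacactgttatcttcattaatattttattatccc
Mitochondrial bases 9789 to 9868: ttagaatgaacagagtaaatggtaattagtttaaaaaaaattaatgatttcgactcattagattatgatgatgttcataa
Copy on chromosome 1: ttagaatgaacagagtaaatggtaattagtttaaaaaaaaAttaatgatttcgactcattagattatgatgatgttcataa

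Per length, COX1 was the most abundant in each of the 16 mice among the 7 mitochondrial mRNAs with 10 or more countable placements. Its mean was 12032 RPKM, reads scaled to the size of the library and to 1 kb of gene, without TMM. The counts do not give the place of the other mRNAs in this order. CYTB followed at 7035, ND1 at 6324, ND2 at 5173, ND4 at 2793 and ND5 at 1708 RPKM. CYTB lay above ND1 in 10 of 16 mice, so the order of this pair was not fixed, while ND1 lay above ND2 in 14 and ND2 above ND4 in 16. The rRNAs were lower, at 1010.2 RPKM for mt-Rnr1, the 12S rRNA of the small ribosomal subunit, and 746 for mt-Rnr2, the 16S rRNA of the large one. ND6, the only mRNA of the minus strand, was at 176. The 6 mRNAs with fewer than 10 countable placements lay between 13.2 (ND4L) and 66.0 (COX2) RPKM. For ND4, which keeps 503 of 1527 placements, the mean was 7653 CPM without TMM per 1000 countable placements, against 7509 for ND1 and 7035 for CYTB.

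**Figure D1:**
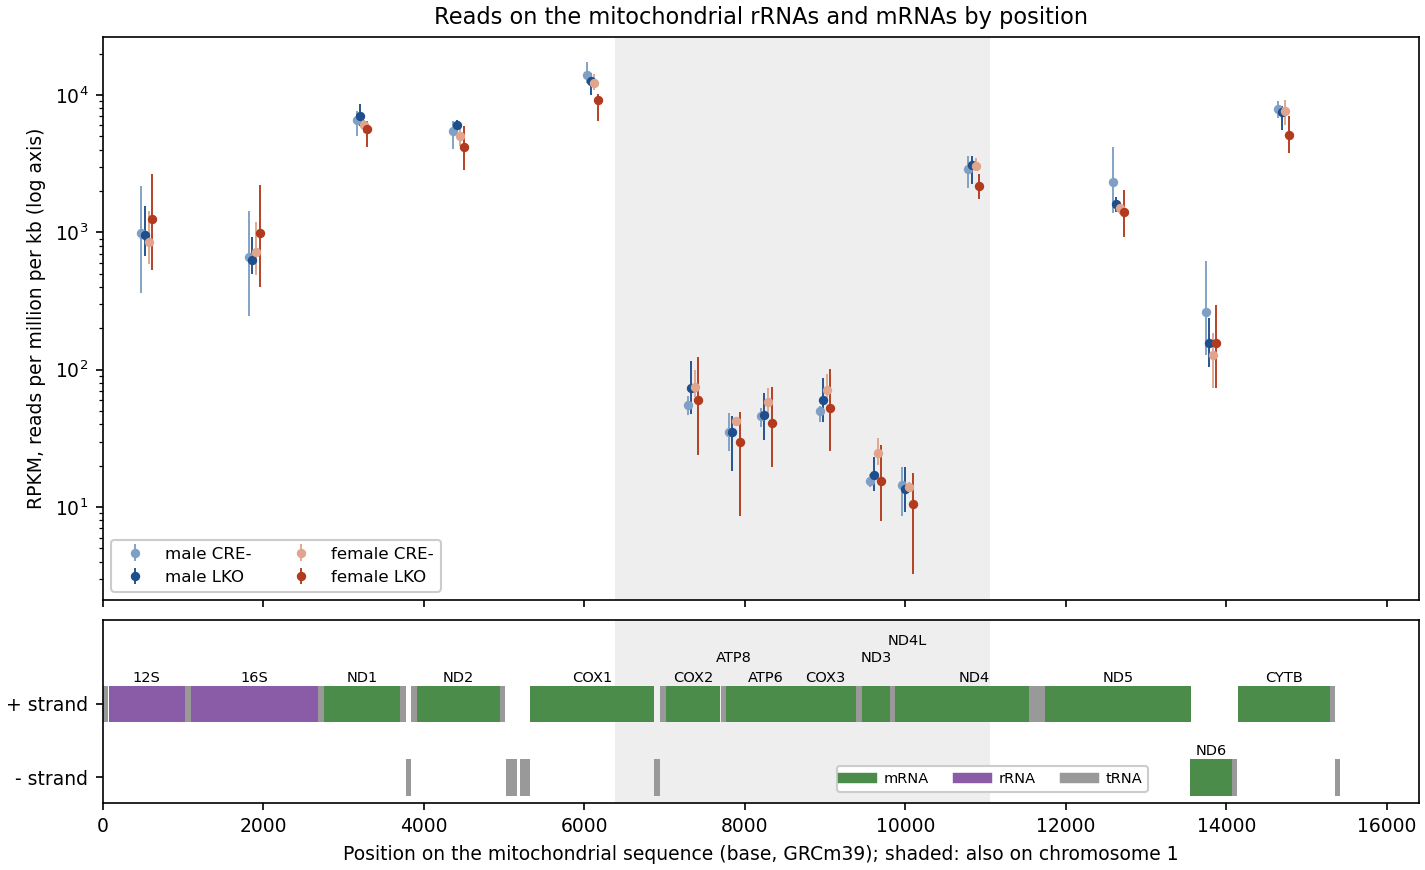
RPKM (log axis) of the mitochondrial rRNAs and mRNAs against position on the mitochondrial sequence, with points for group means and bars from the lowest to the highest of 4 mice, above a map of the genes by strand. The shaded part, bases 6390 to 11042, also lies on chromosome 1, and the 6 mRNAs with fewer than 10 countable placements sit there between 13.2 and 66.0 on average.

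As a share of all counted reads, the mitochondrial mRNAs were lower in female LKO livers than in those of female controls. The share was 4.26, 5.26, 4.57 and 4.24% in the 4 female CRE- mice and 3.49, 4.14, 3.85 and 2.702% in the 4 female LKO mice, so that every LKO mouse lay below every control. The group means were 4.58 ± 0.475% and 3.55 ± 0.622% (SD, n = 4), and the mean log2 difference of -0.38 had p = 0.0286 in an exact two-sided permutation test over 70 arrangements, the smallest p that 4 mice against 4 can give. Over the 9 permutation tests run on shares and ratios, its Benjamini-Hochberg adjusted p was 0.257. Without female LKO mouse 1 the log2 difference was -0.38 (p = 0.0286, exact permutation test over 35 arrangements, again the smallest they can give). Leaving out any 1 of the female CRE- mice gave p between 0.0571 and 0.0857 by the exact permutation test, with log2 differences of -0.42 to -0.32. In males the share was 4.42, 5.23, 5.75 and 5.001% in CRE- mice and 4.004, 4.91, 5.31 and 5.27% in LKO mice. These groups overlapped, with means of 5.10 ± 0.552% and 4.87 ± 0.607% (SD, n = 4) and a log2 difference of -0.068 (p = 0.600, exact two-sided permutation test). Without both libraries that stood apart the male log2 difference was -0.0078. The difference between the sexes was -0.32 on the log2 scale, female minus male, and was within the spread between mice (p = 0.191, exact permutation of genotype within each sex, 4900 arrangements).

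**Figure D2:**
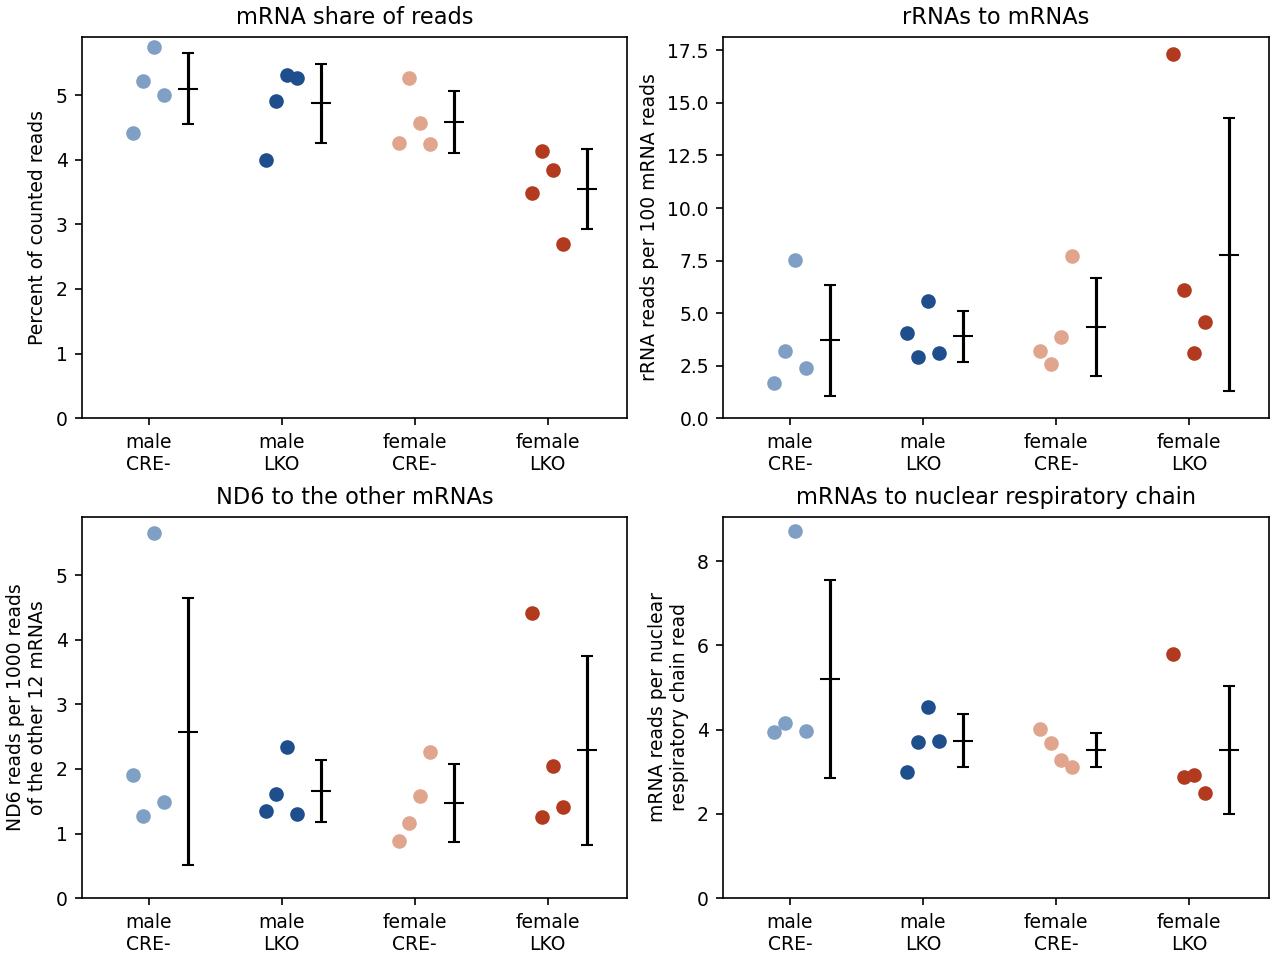
Values per mouse (points) with the group mean and SD (bars, n = 4) of the mRNA share of counted reads in percent, rRNA reads per 100 mRNA reads, ND6 reads per 1000 reads of the other 12 mRNAs, and mRNA reads per read of the nuclear respiratory chain list. In the first panel the 4 female LKO mice sit between 2.702% and 4.14%, all under the female CRE- mice, while in the others male CRE- mouse 3 and female LKO mouse 1 are the highest of their groups.

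Gene by gene, no mitochondrial gene passed the threshold in either sex by edgeR with the 4 groups as the only terms of the fit. With a block on replicate numbers edgeR called 3 in females, COX1, ND4 and CYTB. The labels do not say what these numbers mark, and the counts below are from the fit without that block. Of the 37 genes, 21 passed the filter on low counts and were tested: all 13 mRNAs, both rRNAs and 6 tRNAs. In females 0 of the 21 had an adjusted p under 0.05 by edgeR, against 4.24% of all genes tested, and 4 had an unadjusted p under 0.05, against 21.4% of all genes. By DESeq2 3 were called in females, COX1, ND4 and CYTB, all lower in LKO, against 11.1% of genes. In males 0 of the 21 passed in edgeR, against 0.454% of genes, 2 had an unadjusted p under 0.05, against 9.53%, and DESeq2 called 1, TrnT, higher in LKO, against 2.03%. The test of the sex difference called 0 of the 21 by edgeR, against 0% of all genes, and 0 by DESeq2, against 2.22%. ND3 and TrnQ had an unadjusted p under 0.05 there, 2 of 21 against 16% of all genes.

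The mRNAs shared a direction in females with TMM, where all 13 had a log2 fold change below 0, while ND6 was above 0, at 0.27, when scaled to library size alone. With TMM the values ran from -0.96 (ND3) to -0.058 (ND6), with a median of -0.70, against a median of 0.035 over all genes tested. The 7 mRNAs with 10 or more countable placements had a median of -0.51, and the 6 with fewer a median of -0.75. With library size alone these medians were -0.25 and -0.46. The mRNAs share 2 precursors and a scaling factor, so their fold changes are not 13 independent measurements. Scaled to library size alone, 12 of 13 were below 0 with a median of -0.42, against 0.30 over all genes, and ND1 was at -0.12 and ND5 at -0.10. All 13 were below 0 with RLE factors, upper-quartile scaling, scaling from nuclear genes and DESeq2, and 12 of 13 were when female CRE- mouse 4, female LKO mouse 2 or female LKO mouse 4 was left out, with ND6 above 0. With TMM, values of LKO and CRE- did not overlap for COX1, ATP8, ND4 and CYTB, 4 of the 13 mRNAs and of the 21 genes tested, against 6.42% of all genes with every female LKO mouse below every control. Scaled to library size alone this held for COX1 and ND4, 2 of the 21, against 2.72% of all genes, and CYTB and ATP8 overlapped. None of the 21 had every female LKO mouse above with TMM, against 5.2% of all genes, and 0 of 21 with library size alone, against 13%. In males 6 of the 13 mRNAs had a log2 fold change above 0 and 7 below (7 and 6 with library size alone, where ATP6 was at 0.027), from -0.81 (ND6) to 0.37 (COX2), with a median of -0.019 against -0.0078 over all genes. The male median was 0.027 with library size alone, against 0.059 over all genes. Without both libraries that stood apart, all 13 were below 0 in females, and in males 8 were above 0 and 5 below. The difference between the sexes, female minus male, had a median of -0.70 over the 13 mRNAs, with 11 below 0, against 0.035 over all genes, and -0.48 with 11 below 0 when scaled to library size alone.

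**Figure D3:**
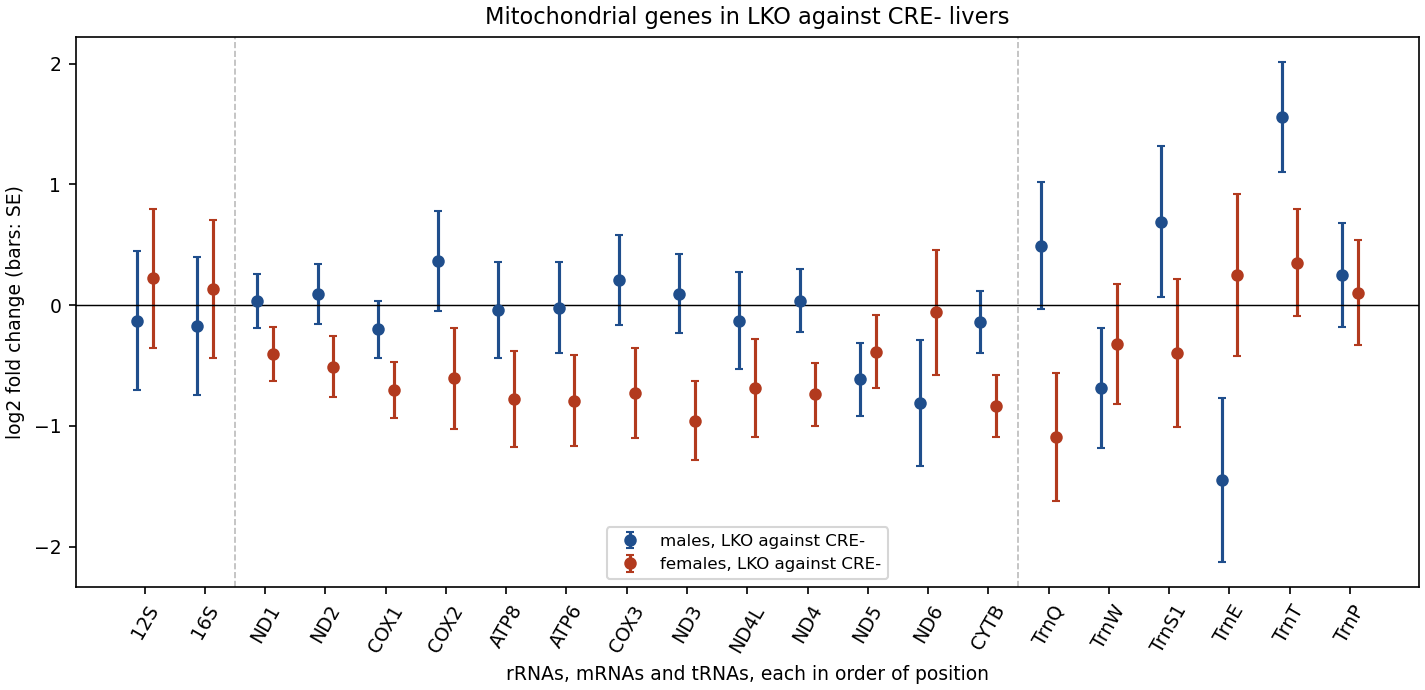
log2 fold changes of LKO over CRE- with their SE (bars) for the 2 rRNAs, 13 mRNAs and 6 tRNAs tested, in order of position within each class, for males and females. Scaling is by TMM. In females the mRNAs lie between -0.96 and -0.058 and in males between -0.81 and 0.37.

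COX1, at bases 5328 to 6872, is the catalytic subunit of cytochrome c oxidase, the last complex of the chain. It was at 17734, 24244, 21044 and 22242 CPM in female CRE- mice and at 13401, 15419, 13912 and 9632 CPM in female LKO mice. The LKO mice were all below the controls, with the lowest value in mouse 4, and the log2 fold change was -0.70 (SE 0.23, edgeR adjusted p = 0.0927). Scaled to library size alone it was -0.42 (edgeR adjusted p = 0.179). In males COX1 was at 17029, 23967, 27464 and 18946 CPM in CRE- mice and 13309.5, 20181, 22324 and 20251 CPM in LKO mice. These ranges overlapped, and the log2 fold change was -0.20 (SE 0.23, edgeR adjusted p = 0.819), or -0.079 without both libraries that stood apart. Female minus male, the difference was -0.50 (SE 0.33, edgeR adjusted p = 0.442). The alternatives run gave COX1 adjusted p of 0.0176 to 0.263 in females by edgeR or DESeq2, the lowest by DESeq2. COX2 and COX3, which complete the core of the same enzyme, lie in the copied part. COX2 ranged over 45.2 to 84.7 CPM in female CRE- and 14.6 to 74.5 CPM in female LKO mice, with a log2 fold change of -0.60 (SE 0.42, edgeR adjusted p = 0.438) that was -0.31 without the libraries that stood apart, and in males the fold change was 0.37 (SE 0.42). COX3 had log2 fold changes of -0.73 (SE 0.37) in females, -0.47 without the libraries that stood apart, and 0.21 (SE 0.37) in males. Its female value was -1.22 to -0.47 when 1 mouse was left out.

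CYTB, at bases 14145 to 15288, is the subunit of complex III that binds ubiquinol. In female CRE- mice it was at 9395, 11576, 9409 and 8552 CPM and in female LKO mice at 3833, 7909.6, 5241 and 4812 CPM. Female LKO mouse 1 had the lowest value and mouse 2 the one closest to the controls, and the groups did not overlap with TMM, though they did with library size alone, where the log2 fold change was -0.58 (edgeR adjusted p = 0.0997). Across female groups CYTB had a log2 fold change of -0.84 (SE 0.26, edgeR adjusted p = 0.0731), and it was -1.07 with an edgeR adjusted p of 0.0237 when female LKO mouse 2 was left out. Over all alternatives the adjusted p by edgeR or DESeq2 lay at 0.0137 to 0.207. In male CRE- mice it was at 6930, 11118, 8267 and 10421 CPM and in male LKO mice at 5431, 9325, 9107 and 9459 CPM, of which mouse 1 was far below the others, and the log2 fold change was -0.14 (SE 0.26, edgeR adjusted p = 0.890). The sexes differed by -0.70 (SE 0.36, edgeR adjusted p = 0.346), female minus male.

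Of the complex I subunits, which form the proton-pumping part of NADH dehydrogenase, ND4 differed most between female groups among those with many countable reads. It was at 4076, 5252, 4363 and 5009.6 CPM in female CRE- mice and 2120.0, 3612, 3055 and 2421 CPM in female LKO mice, with no overlap and a log2 fold change of -0.74 (SE 0.26, edgeR adjusted p = 0.111). Scaled to library size alone its log2 fold change was -0.47, and over all alternatives its adjusted p by edgeR or DESeq2 was 0.0286 to 0.295. In males it was at 2549 to 5142 CPM in CRE- and 2667 to 4910.4 CPM in LKO mice, with 0.036 (SE 0.26, edgeR adjusted p = 0.979). ND1 was at 5276 to 7794 CPM in female CRE- and 3852 to 5433 CPM in female LKO mice, which overlap, with a log2 fold change of -0.40 (SE 0.22, edgeR adjusted p = 0.318). ND2 was at 4931 to 6613 and 2594 to 6071 CPM, the highest LKO value being that of mouse 2, with -0.51 (SE 0.25, edgeR adjusted p = 0.250). It had -0.32 without the libraries that stood apart and -0.25 with library size alone. In males ND1 and ND2 had log2 fold changes of 0.034 (SE 0.22) and 0.092 (SE 0.25), and 0.11 and -0.027 without those libraries. ND3, in the copied part, had at most 513 reads in a library, with 3 countable placements, and a log2 fold change of -0.96 (SE 0.33, edgeR adjusted p = 0.101) in females and 0.10 (SE 0.33, edgeR adjusted p = 0.949) in males. Leaving out female LKO mouse 3 gave ND3 a log2 fold change of -1.37 in females with an edgeR adjusted p of 0.0324, within 0.0324 to 0.280 over all alternatives. ND4L, beside it, had -0.68 (SE 0.40, edgeR adjusted p = 0.356) in females and -0.13 (SE 0.40, edgeR adjusted p = 0.943) in males.

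ND5 and ND6, both complex I subunits, lie side by side on opposite strands, and both were highest in male CRE- mouse 3. ND5 was at 3215, 3645, 7782 and 2569 CPM in male CRE- mice and 2184, 3051, 3289.6 and 2733 CPM in male LKO mice, with a log2 fold change of -0.61 (SE 0.30, edgeR adjusted p = 0.549) that was -0.17 without the libraries that stood apart. In females ND5 was at 2732 to 3312 CPM in CRE- and 1625 to 3273 CPM in LKO mice, with -0.39 (SE 0.30, edgeR adjusted p = 0.508). ND6 was at 74.3, 73.5, 332 and 75.1 CPM in male CRE- mice and 46.4, 78.3, 124 and 68.6 CPM in male LKO mice. Mouse 3 lay far above the other male controls, and the log2 fold change of -0.81 (SE 0.52, edgeR adjusted p = 0.661) turned to 0.079 without it and to 0.087 without both libraries that stood apart. Female values of ND6 were 39.8, 67.0, 80.2 and 118 CPM in CRE- and 136, 51.6, 69.4 and 36.8 CPM in LKO mice, and the log2 fold change was -0.058 (SE 0.52, edgeR adjusted p = 0.968), -0.51 without both libraries that stood apart and 0.27 with library size alone.

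ATP6 and ATP8, the mitochondrial subunits of the membrane part of ATP synthase, overlap each other and lie in the copied part. ATP6 was at 32.0 to 62.6 CPM in female CRE- and 12.5 to 44.9 CPM in female LKO mice, with a log2 fold change of -0.79 (SE 0.38, edgeR adjusted p = 0.237) in females and -0.019 (SE 0.37, edgeR adjusted p = 0.995) in males. The female value was -0.54 without both libraries that stood apart, and -1.20 to -0.54 when 1 mouse was left out. ATP8 was at 8.86 to 11.3 CPM in female CRE- and 1.68 to 8.85 CPM in female LKO mice. The latter groups were next to each other with TMM and overlapped with library size alone, where female LKO mouse 3 lay above every control, and the log2 fold change was -0.78 (SE 0.40, edgeR adjusted p = 0.275) in females and -0.041 (SE 0.40, edgeR adjusted p = 0.985) in males. For ATP8 in females it was -0.68 without both libraries that stood apart, and -1.09 to -0.47 when 1 mouse was left out. ATP6, COX2 and COX3 varied together among the female LKO mice: mice 1 and 4 were low and mice 2 and 3 high for each of them.

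Of the mRNA reads that the counting rules let through, COX1 took the largest share in each group. It took 41.4% ± 1.20 of the mRNA reads in female CRE- and 39.8% ± 2.98 in female LKO mice, and 42.2% ± 3.77 and 40.3% ± 1.87 in male CRE- and male LKO mice (SD, n = 4 in each). CYTB took 18.97% ± 2.05 and 16.4% ± 3.15 in females and 17.9% ± 2.86 and 17.6% ± 1.41 in males. ND1 took 12.8% ± 1.54 and 15.2% ± 1.83 in females and 12.2% ± 0.966 and 13.9% ± 2.04 in males. These differences were not tested.

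The rRNAs had a wide spread within every group, and neither was called. The 12S rRNA mt-Rnr1 was at 602, 619, 803 and 1705 CPM in female CRE- mice and 2258, 1107, 492 and 492 CPM in female LKO mice. The highest value was that of female LKO mouse 1, and the log2 fold change was 0.22 (SE 0.58, edgeR adjusted p = 0.873). The 16S rRNA mt-Rnr2 was at 819, 875, 1158 and 2350.0 CPM in female CRE- and 3089, 1382, 555 and 697 CPM in female LKO mice, with 0.14 (SE 0.57, edgeR adjusted p = 0.923). In males mt-Rnr1 was at 305, 871, 2129.7 and 584 CPM in CRE- and 634, 631, 1486 and 802 CPM in LKO mice, with -0.13 (SE 0.58, edgeR adjusted p = 0.962). There mt-Rnr2 was at 345 to 2331 CPM in CRE- and 752 to 1458 CPM in LKO mice, with -0.17 (SE 0.57, edgeR adjusted p = 0.945). The direction rests on the libraries that stood apart: without them mt-Rnr1 had -0.41 in females and 0.60 in males, and mt-Rnr2 had -0.55 and 0.54. Both rRNAs varied together, and mt-Rnr1 lay above mt-Rnr2 per length in 16 of 16 mice.

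Set against the mRNAs, all of which but ND6 lie on the strand of the rRNAs, the rRNAs gave 1.66, 3.21, 7.53 and 2.41 reads per 100 mRNA reads in male CRE- mice and 4.03, 2.89, 5.57 and 3.10 in male LKO mice. In females they gave 3.18, 2.58, 3.88 and 7.72 in CRE- and 17.3, 6.09, 3.08 and 4.57 in LKO mice. The log2 differences were 0.26 (p = 0.686) in males and 0.65 (p = 0.400) in females, both by the exact two-sided permutation test. The spread within each group was wide, and without the libraries that stood apart the log2 differences were 0.68 (p = 0.143) and 0.16 (p = 0.743), by the exact permutation test over 35 arrangements.

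ND6 reads were set against those of the other 12 mRNAs, which all lie on the plus strand, as a ratio of the strands. The ratio is of reads that poly-A selection retained, and the part of the selection in it was not tested. Male CRE- mouse 3 and female LKO mouse 1 were the highest of their groups in it. They also had the most rRNA reads per 100 mRNA reads of their groups, at 7.53 and 17.3. Male CRE- mice had 1.90, 1.27, 5.65 and 1.49 and male LKO mice 1.353, 1.61, 2.35 and 1.31 ND6 reads per 1000 reads of the other mRNAs. Female CRE- mice had 0.889, 1.16, 1.59 and 2.26 and female LKO mice 4.41, 1.26, 2.05 and 1.42. The log2 differences were -0.40 (p = 0.629) in males and 0.53 (p = 0.400) in females by the exact permutation test, and 0.070 and 0.15 without the libraries that stood apart, so the male direction turned.

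Few tRNA reads were counted. Of the 22 tRNAs, 10 had 0 reads in all 16 libraries, and 15 have no placement that the counting rules allow, since every read of 150 bases on 14 of them reaches another gene of the same strand and every placement on TrnS1 has a nuclear copy. The 7 with such a placement had at most 191 reads in a library and the 15 without had at most 54. TrnS1, the serine tRNA beside COX1, belongs to the 15, and its reads are uncertain. The 6 tRNAs tested were at low levels, with TrnQ at 0.629 to 4.07, TrnW at 0.514 to 3.56, TrnS1 at 0.135 to 1.44, TrnE at 0.0772 to 1.25, TrnT at 0.284 to 1.87 and TrnP at 0.318 to 2.14 CPM over the 16 mice. TrnT, the threonine tRNA beside CYTB, was at 0.284, 0.579, 0.442 and 0.517 CPM in male CRE- and 0.669, 1.87, 1.57 and 1.27 CPM in male LKO mice. All male LKO values were above the controls, 1 of 21 genes tested against 3.57% of all genes, and 0 of 21 had all male LKO values below, against 2.92%. The log2 fold change of TrnT was 1.56 (SE 0.46, edgeR adjusted p = 0.189) in males and 0.35 (SE 0.44, edgeR adjusted p = 0.705) in females, and DESeq2 gave it an adjusted p of 0.0384 in males. Over all alternatives that adjusted p was 0.0384 to 0.437 by edgeR or DESeq2. It had 14 to 90 reads per library, so counting error adds to its spread.

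The other tRNAs tested gave these fold changes. TrnQ, for glutamine, had -1.09 (SE 0.53, edgeR adjusted p = 0.245) in females and 0.49 (SE 0.52, edgeR adjusted p = 0.798) in males. Without both libraries that stood apart it had -0.82 in females and 0.29 in males. Leaving out 1 mouse gave TrnQ -1.64 to -0.82 in females and 0.13 to 0.78 in males. TrnE, for glutamate and next to ND6 on its strand, had -1.45 (SE 0.68, edgeR adjusted p = 0.523) in males, where the highest value was again that of male CRE- mouse 3. In females it had 0.25 (SE 0.67, edgeR adjusted p = 0.879). Without both libraries that stood apart TrnE had -0.66 in males and 0.13 in females. TrnW, TrnS1 and TrnP had log2 fold changes of -0.69, 0.69 and 0.25 in males and -0.32, -0.40 and 0.10 in females, all with adjusted p above 0.05 by edgeR. Without both libraries they were -0.30, 0.77 and 0.19 in males and -0.64, -0.16 and -0.030 in females, and TrnW in females was at 0.0068 when scaled to library size alone. In males the fits that left out 1 mouse gave -0.92 to -0.31 for TrnW and 0.095 to 0.97 for TrnS1.

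Of the nuclear-encoded respiratory chain, all 75 genes had a log2 fold change below 0 in females, with a median of -0.50, and 72 of 75 were above 0 in males, with a median of 0.27. Without both libraries that stood apart, 73 of 75 were below 0 in females with a median of -0.26, and 54 of 75 above 0 in males with a median of 0.071. Scaled to library size alone, 73 of 75 were below 0 in females with a median of -0.23, and 73 above 0 in males with a median of 0.35. Called were 0 of 75 in males and 0 in females by edgeR, 0 and 20 at an unadjusted p under 0.05, and 0 and 4 by DESeq2. Over all genes tested, 0.454% in males and 4.24% in females were called by edgeR, 9.53% and 21.4% had an unadjusted p under 0.05, and 2.03% and 11.1% were called by DESeq2, which holds beside each list below too. Sdhb, the iron-sulfur subunit of complex II, had the smallest p in females and Ndufb11, of complex I, that in males. Their log2 fold changes were -0.88 (SE 0.26, edgeR adjusted p = 0.0614) for Sdhb in females and 0.52 (SE 0.29, edgeR adjusted p = 0.600) for Ndufb11 in males. With library size alone, 2 of 75 in males, all higher, and 4 in females, all lower, had an unadjusted p under 0.05 by edgeR. Over all genes that scaling gave 1156 higher and 567 lower in males, and 3893 higher and 643 lower in females.

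The mitochondrial mRNAs were set against these nuclear partners as a ratio of reads. They gave 4.01, 3.69, 3.28 and 3.10 reads per read of the nuclear genes in female CRE- mice and 5.79, 2.87, 2.93 and 2.51 in female LKO mice. Female LKO mouse 1 was above all controls and the other female LKO mice below them, and the log2 difference was -0.075 (p = 0.857) by the exact permutation test. Without mouse 1 it was -0.34 (p = 0.0571, exact permutation test over 35 arrangements). Male CRE- mice had 3.95, 4.17, 8.72 and 3.98 and male LKO mice 2.998, 3.71, 4.54 and 3.73 reads per read. The log2 difference in males was -0.40 (p = 0.286) by the exact permutation test, and it was -0.12 without male CRE- mouse 3. Both mice left out here were picked out by their low share of reads on these nuclear genes, the denominator of this ratio. The values without them are therefore no independent test.

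Nuclear genes that make and process mitochondrial RNA were examined as lists, by the count of members called and the median log2 fold change. Over all genes tested, 8217 of 16742 had a log2 fold change above 0 in males and 8891 in females. Of mitochondrial transcription, called were 0 of 9 in males and 0 in females by edgeR, 0 and 1 at an unadjusted p under 0.05, and 0 and 0 by DESeq2. Its log2 fold changes lay with 7 of 9 above 0 in males (median 0.15) and 1 of 9 above 0 in females (median -0.22, and 0.050 with library size alone). Tfb2m, which melts the promoter for the mitochondrial RNA polymerase, had 0.38 (SE 0.22, edgeR adjusted p = 0.614) in males, and the elongation factor gene Tefm had -0.42 (SE 0.16, edgeR adjusted p = 0.140) in females, the smallest p of the list in each sex. In mitochondrial RNA processing and decay the calls were 0 of 23 in males and 0 in females by edgeR, 2 and 4 at an unadjusted p under 0.05, and 0 and 0 by DESeq2, with 16 of 23 above 0 in males (median 0.090) and 3 of 23 above 0 in females (median -0.21, and 0.058 with library size alone). Lactb2, which encodes a mitochondrial endoribonuclease, had the smallest p in both sexes, with -0.55 (SE 0.22, edgeR adjusted p = 0.414) in males and -0.63 (SE 0.22, edgeR adjusted p = 0.111) in females. For mitochondrial rRNA and tRNA modification they were 0 of 22 in males and 0 in females by edgeR, 2 and 1 at an unadjusted p under 0.05, and 0 and 0 by DESeq2, with 17 of 22 above 0 in males (median 0.17) and 4 of 22 above 0 in females (median -0.28, and -0.016 with library size alone). Of these Pus1, a pseudouridine synthase gene, had 0.43 (SE 0.16, edgeR adjusted p = 0.356) in males and Mrm2, the gene of a 16S rRNA methyltransferase, -0.68 (SE 0.26, edgeR adjusted p = 0.137) in females.

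Genes of mitochondrial DNA maintenance called were 0 of 18 in males and 1 in females by edgeR, 1 and 6 at an unadjusted p under 0.05, and 1 and 3 by DESeq2, with 10 of 18 above 0 in males (median 0.042) and 4 of 18 above 0 in females (median -0.13, and 0.14 with library size alone). The gene called by edgeR was Slc25a33, a carrier of pyrimidine nucleotides into mitochondria. It was at 11.3, 10.6, 10.8 and 9.17 CPM in female CRE- and 24.7, 23.6, 33.9 and 15.6 CPM in female LKO mice, and rose with a log2 fold change of 1.23 (SE 0.22, edgeR adjusted p = 0.0129). The female groups did not overlap, and the call held in each of the 16 fits that left out 1 mouse, with an adjusted p of 3.6e-05 to 0.0477 over all alternatives by edgeR or DESeq2. Males had 0.91 (SE 0.22, edgeR adjusted p = 0.101), and the sexes differed by 0.32 (SE 0.31, edgeR adjusted p = 0.615), female minus male. Copies of mitochondrial DNA were not measured. Regulators of mitochondrial biogenesis called were 0 of 8 in males and 0 in females by edgeR, 2 and 1 at an unadjusted p under 0.05, and 0 and 0 by DESeq2, with 1 called higher in females by edgeR when scaled to library size alone. They lay with 2 of 8 above 0 in males (median -0.051, and 0.024 with library size alone) and 6 of 8 above 0 in females (median 0.14, and 8 of 8 with a median of 0.39 with library size alone). Ppargc1a, a coactivator gene of that program that glucagon is known to induce in liver, was at 10.8, 7.998, 15.3 and 6.92 CPM in male CRE- and 5.71, 4.41, 7.11 and 4.38 CPM in male LKO mice, with -0.92 (SE 0.33, edgeR adjusted p = 0.333) in males and 0.14 (SE 0.33, edgeR adjusted p = 0.852) in females. Pprc1, a related coactivator gene, had 0.83 (SE 0.29, edgeR adjusted p = 0.109) in females.

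The mass references, genes of citrate synthase, outer membrane channels, import and prohibitin complexes, had as calls 0 of 12 in males and 0 in females by edgeR, 0 and 1 at an unadjusted p under 0.05, and 0 and 0 by DESeq2, with 11 of 12 above 0 in males (median 0.12) and 1 of 12 above 0 in females (median -0.23, and 0.045 with library size alone). Citrate synthase, Cs, had -0.42 (SE 0.16, edgeR adjusted p = 0.138) in females and the import channel gene Timm23 0.35 (SE 0.18, edgeR adjusted p = 0.572) in males. In mitochondrial protein quality control the calls were 1 of 12 in males and 1 in females by edgeR, 4 and 1 at an unadjusted p under 0.05, and 1 and 1 by DESeq2, with 10 of 12 above 0 in males (median 0.25) and 1 of 12 above 0 in females (median -0.20, and 0.065 with library size alone). Atf5, the gene of a transcription factor of the mitochondrial stress response, was at 290.3, 345, 302 and 451 CPM in male CRE- and 579, 719, 775 and 807 CPM in male LKO mice and rose in males, with 1.05 (SE 0.20, edgeR adjusted p = 0.0317), while females had -0.16 (SE 0.20, edgeR adjusted p = 0.694) and the difference, female minus male, was -1.22 (SE 0.28, edgeR adjusted p = 0.140). The adjusted p of Atf5 by edgeR was above 0.05 without male CRE- mouse 1, 2 or 3, male LKO mouse 2, 3 or 4, or female CRE- mouse 4, and lay at 7.66e-05 to 0.117 over all alternatives by edgeR or DESeq2. Oma1, a protease gene of the inner membrane, fell in females with -0.69 (SE 0.18, edgeR adjusted p = 0.0441), at 15.7, 19.1, 17.1 and 20.3 CPM in CRE- and 7.78, 12.9, 12.1 and 11.9 CPM in LKO mice. The sexes differed by -0.63 (SE 0.26, edgeR adjusted p = 0.258) in Oma1, female minus male. Its call was lost in 12 of 16 fits that left out 1 mouse, all but those without male CRE- mouse 2 or 3, male LKO mouse 1 or female LKO mouse 2, and without both libraries that stood apart, where the log2 fold change was -0.53 (edgeR adjusted p = 0.0812, 0.00912 to 0.134 over all alternatives), with scaling from nuclear genes alone, where it was -0.68 (edgeR adjusted p = 0.0504), and with library size alone, where it was -0.42 (edgeR adjusted p = 0.113).

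A list of RNAs held to carry no poly-A tail was examined too. It holds RNAs such as the RNA components of RNase P and telomerase and replication-dependent histone mRNAs. Whether the counted molecules lacked a tail was not measured, and their levels depend on expression as well as on the selection. Of the 16 on the list 8 were tested, and called were 0 of 8 in males and 0 in females by edgeR, 0 and 0 at an unadjusted p under 0.05, and 0 and 0 by DESeq2. Their log2 fold changes had medians of 0.19 in males and 0.042 in females, which ranged over 0.0095 to 1.36 and -0.70 to 0.95 when 1 mouse was left out, so neither is stable. Their summed level was 85.6 to 131 CPM in male CRE-, 79.3 to 151 in male LKO, 133 to 292 in female CRE- and 112 to 221 in female LKO mice, the highest being female CRE- mouse 4. The histone gene H2bc4 was the most abundant, at a mean of 82.1 CPM, and made up much of that sum. Its group means were 70.8 of 107 CPM in male CRE-, 76.7 of 120 in male LKO, 112 of 193 in female CRE- and 68.7 of 164 in female LKO mice. Rpph1, the RNase P RNA, had 1.08 (SE 0.76, edgeR adjusted p = 0.691) in males, and H2bc4 -0.71 (SE 0.35, edgeR adjusted p = 0.252) in females. Their part in the rRNA and tRNA values was not tested.

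Lists of marker genes stand for the cell types a liver sample can hold. The 10 hepatocyte markers, abundant in all 16 libraries, summed to 133311, 128813, 136345 and 153975 CPM in female CRE- and 59814, 107153, 104169 and 79476 CPM in female LKO mice. With TMM all LKO mice lay below the controls. Without TMM, the scale on which the mitochondrial mRNA share was taken, the sums overlapped, with female LKO mouse 3 at 117991 and female CRE- mouse 2 at 117145 CPM. In males they summed to 85537, 115593, 113280 and 114043 CPM in CRE- and 75584, 93348, 107100 and 95688 CPM in LKO mice. Called were 0 of 10 in males and 0 in females by edgeR, 3 and 5 at an unadjusted p under 0.05, and 0 and 2 by DESeq2, with medians of -0.13 in males and -0.73 in females. Alb, albumin and the most abundant, had -0.69 (SE 0.24, edgeR adjusted p = 0.103) in females and -0.33 (SE 0.24, edgeR adjusted p = 0.698) in males. The part of these cells in the mitochondrial values was not tested.

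Macrophage markers summed to 691, 525, 575 and 977 CPM in female CRE- and 3764, 892, 2002 and 1118 CPM in female LKO mice, with the highest value in LKO mouse 1. In males they summed to 812, 439, 263 and 1181 CPM in CRE- and 1065, 591, 669 and 595 CPM in LKO mice. The calls were 0 of 11 in males and 2 in females by edgeR, 0 and 11 at an unadjusted p under 0.05, and 0 and 10 by DESeq2, with medians of 0.057 in males and 1.81 in females. Those called by edgeR, both higher in females, were Trem2, a receptor of lipid-associated macrophages, with 2.701 (SE 0.60, edgeR adjusted p = 0.0249), and Adgre1, the F4/80 antigen, with 2.15 (SE 0.57, edgeR adjusted p = 0.0451). Neither call is stable: Adgre1 had an edgeR adjusted p above 0.05 in 10 of 16 fits that left out 1 mouse, with 1.21 (edgeR adjusted p = 0.189) without female LKO mouse 1, and Trem2 in 4 of 16, with log2 fold changes of 2.34 to 2.98. Neither was called without both libraries that stood apart, with 2.34 (edgeR adjusted p = 0.0608) for Trem2 and 1.21 (edgeR adjusted p = 0.113) for Adgre1. Cd5l, the most abundant, had 1.31 (SE 0.48, edgeR adjusted p = 0.119) in females.

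Neutrophil markers summed to 36.7, 19.3, 16.4 and 16.5 CPM in female CRE- and 124, 42.4, 64.3 and 547 CPM in female LKO mice, and to 78.7, 19.7, 15.9 and 147 CPM in male CRE- and 26.2, 16.3, 13.1 and 12.5 CPM in male LKO mice. Ly6g was at 0 in 9 of 16 libraries and Elane in 2. The calls were 0 of 6 in males and 2 in females by edgeR, 5 and 6 at an unadjusted p under 0.05, and 1 and 5 by DESeq2, with medians of -2.10 and 3.37. Higher in females by edgeR were Retnlg, with 2.86 (SE 0.69, edgeR adjusted p = 0.0331), and Mpo, the myeloperoxidase gene, with 5.23 (SE 1.27, edgeR adjusted p = 0.0332). Leaving out 1 mouse gave Retnlg an edgeR adjusted p above 0.05 in 6 of 16 fits, with log2 fold changes of 2.04 to 3.19, and Mpo in 5, with 4.20 to 6.61. With both libraries that stood apart left out, Retnlg had 3.04 (edgeR adjusted p = 0.0368) and Mpo, no longer called, 5.18 (edgeR adjusted p = 0.0533). S100a9, the most abundant, had 3.17 (SE 0.88, edgeR adjusted p = 0.0511) in females and -2.23 (SE 0.85, edgeR adjusted p = 0.382) in males.

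Genes of proliferating cells summed to 9.60, 7.96, 4.597 and 17.3 CPM in female CRE- and 76.2, 14.9, 30.2 and 31.6 CPM in female LKO mice, and to 5.61 to 21.01 CPM in male CRE- and 4.97 to 13.5 CPM in male LKO mice. The calls were 0 of 5 in males and 4 in females by edgeR, 0 and 5 at an unadjusted p under 0.05, and 0 and 5 by DESeq2, all higher, and 2 of 5 members were above 0 in males (median -0.10) and 5 in females (median 1.72). Birc5, which acts in chromosome segregation, had 1.63 (SE 0.36, edgeR adjusted p = 0.0232), and the cyclin gene Ccnb1 and its kinase gene Cdk1 had 2.60 (SE 0.58, edgeR adjusted p = 0.0256) and 1.72 (SE 0.39, edgeR adjusted p = 0.0266) in females. Each had an edgeR adjusted p above 0.05 in 4 of 16 fits that left out 1 mouse, with log2 fold changes of 1.36 to 1.87, 2.28 to 2.88 and 1.56 to 2.24. None of the 3 was called without both libraries that stood apart, with 1.36 (edgeR adjusted p = 0.0549) for Birc5, 2.28 (edgeR adjusted p = 0.0603) for Ccnb1 and 1.65 (edgeR adjusted p = 0.0549) for Cdk1. Mki67, the most abundant, was at 5.06, 3.93, 1.77 and 7.75 CPM in female CRE- and 34.1, 3.94, 10.04 and 11.6 CPM in female LKO mice. In endothelium, which summed to 175 to 234 CPM in female CRE- and 194 to 325 CPM in female LKO mice, the calls were 0 of 6 in males and 1 in females by edgeR, 1 and 3 at an unadjusted p under 0.05, and 0 and 2 by DESeq2. Of this list 4 of 6 members were above 0 in males (median 0.23) and 4 in females (median 0.52). Vwf, the von Willebrand factor gene, had 1.15 (SE 0.28, edgeR adjusted p = 0.0358) in females and -0.61 (SE 0.28, edgeR adjusted p = 0.512) in males, and Stab2, the most abundant, had 0.65 (SE 0.25, edgeR adjusted p = 0.147) in females. The call of Vwf was lost in 6 of 16 fits that left out 1 mouse, with log2 fold changes of 0.86 to 1.37. Vwf was also not called without both libraries that stood apart, at 1.04 (edgeR adjusted p = 0.0560).

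Over the marker lists, edgeR called 9 genes in females, and these counts turned on single mice. Leaving out female CRE- mouse 2, female CRE- mouse 3 or female LKO mouse 1 gave 0 in each case, female CRE- mouse 4 gave 2, female CRE- mouse 1 gave 4, female LKO mouse 4 gave 5 and female LKO mouse 2 gave 20. Without both libraries that stood apart 2 were called, and with library size alone 19. Over all genes tested, library size alone called 1013 higher and 199 lower in females, against 350 and 360 with TMM. For the fits that left mice out the share over all genes is not given, so their counts are not read as a result about the markers. The part of these cells in the mitochondrial values was not tested.

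No member of the lists of T and NK cells, B cells with plasma cells, erythroid cells, stellate cells and fibroblasts, cholangiocytes or adipocytes was called in either sex, 0 by edgeR and 0 by DESeq2, and at an unadjusted p under 0.05 there were 0, 0, 4, 0, 0 and 1 in males and 0, 1, 0, 0, 0 and 1 in females, in that order. T and NK cell genes summed to 7.77 to 24.3 CPM in female CRE-, 10.4 to 22.7 in female LKO, 4.94 to 17.2 in male CRE- and 6.05 to 24.5 in male LKO mice. Of these 4 of 7 members were above 0 in males (median 0.026) and 6 in females (median 0.25), and the most abundant, Nkg7, had log2 fold changes of 0.026 in males and 0.28 in females. B and plasma cell genes summed to 158 to 376 CPM in female CRE-, 214 to 816 in female LKO, 161 to 435 in male CRE- and 278 to 525 in male LKO mice. There 6 of 8 members were above 0 in males (median 0.22) and 8 in females (median 0.62), and Ighm had 0.75 (SE 0.42) in males and 0.49 (SE 0.42) in females. Erythroid genes summed to 389 to 787 CPM in female CRE-, 304 to 1650.3 in female LKO, 558 to 1039 in male CRE- and 196 to 492 in male LKO mice. Of the list 0 of 5 members were above 0 in males (median -1.27) and 5 in females (median 0.57), and Hbb-bs had -1.08 (SE 0.47) in males and 0.58 (SE 0.47) in females. Among these lists the erythroid one had the most members with an unadjusted p under 0.05, all lower in male LKO mice. Stellate cell and fibroblast genes summed to 351 to 426 CPM in female CRE-, 278 to 469 in female LKO, 307 to 615 in male CRE- and 274 to 476 in male LKO mice. Here 1 of 7 members was above 0 in males (median -0.57) and 4 in females (median 0.43), while Dcn, the most abundant, went against the median in both sexes, with 0.072 (SE 0.26) in males and -0.29 (SE 0.26) in females. Cholangiocyte genes summed to 53.1 to 117 CPM in female CRE-, 66.4 to 146 in female LKO, 43.6 to 101 in male CRE- and 72.1 to 90.2 in male LKO mice. In this list 4 of 5 members were above 0 in males (median 0.44) and 4 in females (median 0.24), and Spp1 had 0.44 (SE 0.33) in males and 0.50 (SE 0.33) in females. Adipocyte genes, of which Adipoq was at 0 in 6 and Plin1 in 9 of 16 libraries, summed to 11.6 to 14.1 CPM in female CRE-, 8.16 to 109.9 in female LKO, 34.1 to 88.5 in male CRE- and 25.7 to 106 in male LKO mice. Of them 4 of 4 members were above 0 in males (median 1.89) and 1 in females (median -0.26), and the male median turns on Adipoq, which was at a mean of 0.0446 CPM in male CRE- mice. Cidec, the most abundant, was the lowest of the 4 in males, with 0.00063 (SE 0.45), and had -0.067 (SE 0.49) in females, and the highest member in females was Fabp4 with 1.93.

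Skeletal muscle genes differed between single male mice. They summed to 1.72, 0.895, 100.1 and 63.2 CPM in male LKO mice, 0.852, 1.23, 0.468 and 1.08 CPM in male CRE- mice, and 1.13 to 24.3 and 1.36 to 10.8 CPM in female CRE- and female LKO mice. Ckm was at 0 in 5 of 16 libraries, Acta1 in 4 and Tnnt3 in 3. The calls were 0 of 4 in males and 0 in females by edgeR, 4 and 0 at an unadjusted p under 0.05, and 4 and 0 by DESeq2, and Acta1, the most abundant, was at 0.0812, 0.178, 0 and 0 CPM in male CRE- and 0.154, 0, 38.2 and 30.6 CPM in male LKO mice, too low in the controls for a fold change to be given. The part of muscle RNA in the mitochondrial values was not tested.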

How the data were processed

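RNA of 16 mouse livers was sequenced after poly-A selection as paired reads of 150 bases. The deposited values are raw counts of reads per gene and library: per the file headers and the labels, the authors aligned with STAR 2.7.1a to GRCm39 and counted with featureCounts of Subread 2.0.6 by strand, leaving out reads with several alignments and reads on more than 1 gene. Depth was 33268424 to 56488920 counted reads per library, and reads were counted singly, so counting error is a lower limit on the spread.

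Genes were kept by filterByExpr with a minimum count of 10, which left 16742 of 41079 genes with at least 99.87% of the reads of every library. The 4 groups were fitted together with edgeR 4.0.16 in R 4.3.3 (TMM, quasi-likelihood F test, Benjamini-Hochberg over all genes tested, threshold 0.05), with DESeq2 1.42.0 as the alternative tool. The contrasts were LKO against CRE- in each sex and the difference between them. The procedure was tested on simulated data. Shares and ratios, 1 value per mouse on the log2 scale, were compared by exact two-sided permutation tests, whose smallest p with 4 mice against 4 is 0.0286. Nuclear copies of the mitochondrial sequence were found with BLAST 2.17.0, and sequences read with samtools 1.23.1, in GRCm39.

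Members and gene lists were chosen with earlier results of these data known, and lists are described by counts and medians without a test. Genes named from a pathway list are those past the threshold, at most 3 with the smallest p in each direction and sex, or else the one with the smallest p in each sex. From a marker list they are the most abundant gene and those past the threshold, at most 3 per direction and sex. Alternatives were the tool, the scaling, the filter, each sex fitted alone, a block on replicate numbers, other denominators, linear values and leaving out each mouse. Leaving out male CRE- mouse 3 and female LKO mouse 1 together, and scaling to library size alone, were chosen after seeing the data. No library was left out of the values given first.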

Additional observations from a re-analysis of the deposited data

Results flagged for a closer look

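In 62 quantities and 248 groups of 4 mice, 17 groups held 1 mouse whose distance to the nearest of the others, as a share of the range of its group, was over the 95% critical value of Dixon's test for 4 values. Chance gives about 1 in 20 groups such a mouse. Values here are on the log2 scale, in CPM unless a ratio is named, and no explanation was tested.

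Male CRE- mouse 3 was the highest of its group in the ratio of mitochondrial mRNAs to nuclear respiratory chain mRNAs, at 3.12, in ND6 at 8.38 and in Vwf at 4.47, and the lowest in Gcgr at 6.99. Female LKO mouse 1 was the lowest of its group in Oma1 at 2.97 and the highest in Rpph1 at 5.39. Among mitochondrial genes, ND1 was lowest in female LKO mouse 4 at 11.91 and CYTB in male LKO mouse 1 at 12.41. The 16S rRNA mt-Rnr2 was highest in male LKO mouse 3 at 10.51, and COX2 in male CRE- mouse 4 at 5.49. Of the tRNAs, TrnT was highest in female CRE- mouse 3 at 0.42, and TrnP highest in male LKO mouse 3 at 1.13 and lowest in female LKO mouse 4 at -1.45. Rpph1 and Cdk1 were highest in female CRE- mouse 4 at 5.47 and 1.499. Vwf was highest in female CRE- mouse 1 at 3.94 and Trem2 in male LKO mouse 1 at 3.36.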

How the results depend on the processing

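The tool changed counts of called genes. DESeq2 called 1 mitochondrial gene in males and 3 in females where edgeR called 0 in either sex, 2 pathway genes in males and 8 in females where edgeR called 1 and 2, and 5 marker genes in males and 24 in females where edgeR called 0 and 9. With scaling from nuclear genes alone 1 pathway gene was called in females, the call of Oma1 being lost. Scaling to library size alone, chosen after seeing the data, gave 19 marker genes called in females, no call of Oma1 and 1 among the regulators of mitochondrial biogenesis, a log2 fold change of Gcgr of -0.67 in females (edgeR adjusted p = 0.0852), and log2 fold changes that turned to 0.27 for ND6 and 0.0068 for TrnW in females and 0.027 for ATP6 in males. It moved the median over all genes tested in females to 0.30, and the calls over all genes there to 1013 higher and 199 lower. All scalings, both filters and each sex fitted alone gave 0 mitochondrial genes by edgeR in either sex, and the cause of the differences was not tested. A ratio taken on linear values turned in 1 case, that of mitochondrial mRNAs to nuclear respiratory chain mRNAs in females, to 0.0039.

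The labels do not say what a replicate number marks, and the libraries were not treated as paired. Those with the same number correlated at -0.0130 to 0.172 after removal of group means, over 0.1 in 6 of 8 pairs, and 9 of 16 correlated best with their own number, where 4 are expected by chance. With a block on these numbers edgeR called 3 mitochondrial genes in females, COX1, ND4 and CYTB, where the fit without it called 0. The paired sign-flip test of the mRNA share in females gave the same log2 difference of -0.38 with an exact permutation p of 0.125, the smallest that 16 arrangements can give.

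Leaving out both male CRE- mouse 3 and female LKO mouse 1, chosen after seeing the data, gave 1 pathway gene and 2 marker genes called in females and a log2 ratio of ND6 to the other mRNAs of 0.070 in males. The log2 fold changes that turned sign were, in males, 0.60 for mt-Rnr1, 0.54 for mt-Rnr2, -0.027 for ND2, 0.16 for ATP8, 0.057 for ATP6, 0.065 for ND4L, -0.045 for ND4 and 0.087 for ND6, and, in females, -0.41 for mt-Rnr1, -0.55 for mt-Rnr2 and -0.030 for TrnP.

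Leaving out 1 mouse at a time gave 0 to 1 mitochondrial genes called in females by edgeR, CYTB without LKO mouse 2 and ND3 without LKO mouse 3. Pathway genes called were 0 to 1 in males and 1 to 7 in females, the 7 without female LKO mouse 2, and marker genes 0 to 1 in males and 0 to 20 in females. Gcgr in females lay at -1.11 to -0.69. The log2 difference of the mRNA share was -0.13 to 0.024 in males and -0.46 to -0.26 in females, that of rRNAs to mRNAs -0.042 to 0.68 in males, that of ND6 to the other mRNAs -0.65 to 0.070 in males, and that of mitochondrial to nuclear respiratory chain mRNAs -0.34 to 0.060 in females. Log2 fold changes whose sign turned ranged, in males, from -0.49 to 0.59 for mt-Rnr1, -0.47 to 0.53 for mt-Rnr2, -0.12 to 0.11 for ND1, -0.032 to 0.19 for ND2, -0.22 to 0.18 for ATP8, -0.28 to 0.15 for ATP6, -0.061 to 0.35 for COX3, -0.12 to 0.23 for ND3, -0.40 to 0.056 for ND4L, -0.14 to 0.18 for ND4, -1.10 to 0.079 for ND6, -0.26 to 0.0033 for CYTB and -0.034 to 0.59 for TrnP. In females they ranged from -0.41 to 0.69 for mt-Rnr1, -0.55 to 0.59 for mt-Rnr2, -0.64 to 0.22 for TrnW, -0.67 to 0.11 for TrnS1, -0.51 to 0.24 for ND6, -0.016 to 0.64 for TrnE, -0.11 to 0.68 for TrnT and -0.059 to 0.39 for TrnP. The cause was not tested.

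Medians of lists also moved when 1 mouse was left out. In males they ranged over -0.22 to 0.14 for mitochondrial mRNAs, 0.084 to 0.23 for mitochondrial transcription, 0.056 to 0.24 for mitochondrial RNA processing and decay, 0.057 to 0.27 for mitochondrial rRNA and tRNA modification, -0.026 to 0.043 for mitochondrial DNA maintenance, -0.15 to -0.0014 for mitochondrial biogenesis regulators, 0.032 to 0.25 for mitochondrial mass references, 0.17 to 0.38 for mitochondrial protein quality control, 0.066 to 0.42 for nuclear-encoded respiratory chain, -0.23 to 0.018 for hepatocytes, -0.30 to 0.50 for macrophages, -2.61 to -1.04 for neutrophils, -0.27 to 0.50 for T and NK cells, 0.076 to 0.37 for B and plasma cells, -1.57 to -1.02 for erythroid cells, -0.88 to -0.051 for stellate cells and fibroblasts, 0.30 to 0.73 for cholangiocytes, 0.47 to 3.46 for adipocytes, 0.10 to 0.25 for endothelium and -0.35 to 0.22 for proliferating cells. In females they ranged over -0.82 to -0.47 for mitochondrial mRNAs, -0.35 to -0.037 for mitochondrial transcription, -0.26 to -0.12 for mitochondrial RNA processing and decay, -0.32 to -0.088 for mitochondrial rRNA and tRNA modification, -0.24 to -0.11 for mitochondrial DNA maintenance, -0.080 to 0.29 for mitochondrial biogenesis regulators, -0.29 to -0.16 for mitochondrial mass references, -0.31 to -0.14 for mitochondrial protein quality control, -0.71 to -0.26 for nuclear-encoded respiratory chain, -0.92 to -0.55 for hepatocytes, 1.21 to 1.92 for macrophages, 1.86 to 3.94 for neutrophils, -0.093 to 0.59 for T and NK cells, 0.15 to 0.90 for B and plasma cells, 0.032 to 0.85 for erythroid cells, 0.15 to 0.58 for stellate cells and fibroblasts, 0.057 to 0.46 for cholangiocytes, -2.27 to 0.072 for adipocytes, 0.35 to 0.64 for endothelium and 1.56 to 2.24 for proliferating cells.

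Counts on the 6 mRNAs with fewer than 10 countable placements and on tRNAs are limited by how few reads the counting rules allow. Those of rRNAs and tRNAs are limited by poly-A selection, and whether the selection bears on ND6 was not tested.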
